A study of Mus musculus with 4 samples.

Results

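The deposited table holds 34315 features, and 1117 of them (3.26%) carry a name of the form HAG followed by a number. Membership of these HAG loci was set by that name alone, although the group was chosen with earlier results of these data known. They were paired with named features annotated on the other strand by overlap of their spans in the deposited mm9 coordinates. Of the 1117 loci, 1115 overlapped a named row on the other strand, and 959 of these partners had a gene symbol. The loci are thus antisense in their annotated position. No source used here says what the letters stand for.

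The libraries came from mouse haematopoietic stem cells, HSCs, which sustain all blood lineages for life and are kept in the marrow. The wild-type group is 4 libraries of freshly sorted bone marrow SP-KSL-CD150+ cells of C57BL/6 mice. The labels call each of the 4 a technical replicate of biological replicate 1. The knockout group (Dnmt3a-KO HSCs, lacking a de novo DNA methyltransferase) has no sample with labels here and enters only as the authors' mean count per feature, so it carries no SD and no n, and its allele, sex and age were not known.

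Antisense transcripts run along the strand opposite a gene. In mammals they are known from imprinted domains, where a long noncoding antisense RNA can silence neighbouring genes, and from the divergent transcription seen at many promoters. Counts from a library that does not keep the strand of each RNA cannot by themselves separate them from the sense transcript. The kit named for these libraries does not mark strand. Reads from the stretch shared by a HAG locus and its partner therefore cannot be given to either strand from these counts. Where the 2 rows overlap, the counts do not tell their reads apart.

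Most loci sat at the far end of a gene. The locus ran over the 3′ end of its partner in 560 cases (50.2%), lay wholly inside the partner in 437 (39.2%), ran over the partner's start in 73 (6.55%) and spanned the whole partner in 45 (4.04%). Spans ran from 196 to 275031 bases with a median of 2335, and the summed exon length, known for the 1106 loci with wild-type reads, had a median of 1645 bases. Exon made up 83.3% of the span of the median HAG locus, against 13.7% for the median partner. For 1075 loci the exon length was shorter than the span, which leaves room for introns, but the table does not say where the blocks lie, so exonic and intronic overlap could not be separated. The 1115 paired loci fell on 1067 partners, and 40 partners carried more than 1 locus, with 4 on the sulfotransferase gene Hs6st3.

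The promoter windows of 3 partners are shown because a HAG locus with a called change covers the partner's whole span, start included. Of 6 such loci, those spanning Dcaf12l2, 6430527G18Rik and 1700030N03Rik are left out. Each is the 250 bases before the RefSeq start of the gene in GRCm38.p6, with CG dinucleotides, the sites that Dnmt3a can methylate, in capitals. Ndn (necdin, a paternally expressed imprinted gene) starts after chr7:62348027-62348276 on the plus strand, Ier5l (immediate early response 5-like) after chr2:30474200-30474449 on the minus strand and Fgfbp3 (a fibroblast growth factor binding protein) after chr19:36919600-36919849 on the minus strand. These positions belong to that build and are not comparable with the mm9 positions given elsewhere.
Ndn: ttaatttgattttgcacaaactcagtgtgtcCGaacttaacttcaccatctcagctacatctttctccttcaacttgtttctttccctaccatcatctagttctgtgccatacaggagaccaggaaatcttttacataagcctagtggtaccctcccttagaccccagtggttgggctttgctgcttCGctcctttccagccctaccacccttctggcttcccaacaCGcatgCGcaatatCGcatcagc
Ier5l: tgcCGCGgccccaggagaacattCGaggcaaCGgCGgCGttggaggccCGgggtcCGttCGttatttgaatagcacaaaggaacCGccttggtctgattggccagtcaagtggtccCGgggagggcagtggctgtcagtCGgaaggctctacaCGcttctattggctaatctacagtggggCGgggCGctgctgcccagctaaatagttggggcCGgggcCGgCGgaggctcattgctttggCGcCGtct
Fgfbp3: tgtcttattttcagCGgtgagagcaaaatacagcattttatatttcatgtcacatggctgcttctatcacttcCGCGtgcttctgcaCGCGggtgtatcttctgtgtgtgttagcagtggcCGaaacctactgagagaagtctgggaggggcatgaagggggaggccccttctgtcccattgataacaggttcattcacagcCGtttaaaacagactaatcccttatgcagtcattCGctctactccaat
The motif searched was CG, which reads the same on both strands. The windows hold 5 CG in Ndn, 20 in Ier5l and 8 in Fgfbp3. In the deposited coordinates the locus reaches past the partner's start by 37 bases at Ndn, 12 at Ier5l and 1141 at Fgfbp3. Whether that start matches the RefSeq start was not checked, so the part of each window under the locus was not known. At least 10 CG were found in 37.8% of all 32851 windows, in 65.4% of the 916 windows matched to any partner, and in 47.6% of the 84 windows matched to a partner whose start is covered. Where that locus was also called the share was 37.5% of 8 windows. Symbols were matched for 716 of the 1067 partners. Methylation was not measured in these files.

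HAG loci held a small and steady part of the libraries. Their share of all counts was 3.257% in library 1 (95% exact binomial interval 3.2517 to 3.2626), 3.252% in library 2, 3.377% in library 3 and 3.395% in library 4, and 3.681% in the authors' knockout mean. Normalised counts are counts divided by each library's size factor. The median locus had 414.2 normalised counts in wild type (interquartile range 23.25 to 1475), below the 1220 of the median partner and above the 12.62 of the median row of the table. There were 384 loci at 1000 or more and 202 under 10. No wild-type read fell in 11 loci, and 27 had no read in the knockout mean. The locus with the most counts was HAG_016893, which spans Zfp36l2, an mRNA decay factor, on chromosome 17. It had 43800, 45040, 52990 and 52260 normalised counts in libraries 1 to 4 and 38320 in the knockout mean.

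Levels between genes were compared per kb of exon. The highest wild-type level per kb was in HAG_042703 (chr9:106333538-106333896), a locus with no named row on the other strand, at 16180 normalised counts per kb. Its counts were 4373, 4626, 6387 and 5971 in the 4 libraries and 6493 in the knockout mean, so the knockout mean lay just above the highest library. The next loci lay over Clec2d, a C-type lectin gene (HAG_034632, 9460 per kb), Angpt1, a Tie2 receptor ligand (HAG_013156, 9074), Cd24a, a surface glycoprotein gene (HAG_003742, 8726), and Fos, an AP-1 subunit (HAG_008909, 7616). Loci over Muc13, Cox7a2l and Gata2, the last a transcription factor of blood stem cells, had 7344, 6848 and 6805. The other locus with no partner, HAG_004432, was low, with 11.57 to 19.72 normalised counts.

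Depth ran from 40709659 to 47408552 counts per library, and a locus without reads may still hold up to 0.0737 CPM (3 counts), counting error alone considered. The targeted gene Dnmt3a had 5208 to 8569 normalised counts in wild type and 8424 in the knockout mean, where the authors' deposited table gives a log2 change of 0.30 (adjusted p = 0.952). Its row therefore does not separate the arms, and no exon-level value was at hand. No HAG locus lay on it. All 8 stem cell markers were found in each library. Summed neutrophil markers were 48720 and 47920 in the first library pair (1 and 2), 10030 and 9961 in the second (3 and 4) and 29320 in the knockout mean, and summed erythroid markers were 5046 to 6917 in wild type and 447.9 in the knockout mean. Summed megakaryocyte markers were 20430 to 23730 and 4866. In bulk samples, fewer cells of a type and less RNA per cell cannot be told apart. The part of these markers in the results below was not tested.

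How many reads a HAG locus could owe to its partner was read from the counts. A pair was measured where both rows had a mean over both arms of at least 10 normalised counts, which 850 pairs had. In 751 of the 850 the HAG locus had no more wild-type counts than its partner, and the median ratio of HAG to partner counts was 0.541 (quartiles 0.276 and 0.809). Per kb of exon the median ratio was 0.867. By position the median ratio was 0.589 over partner ends, 0.341 inside partners, 0.587 over partner starts and 1.05 where the locus spanned the partner.

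**Figure D1:**
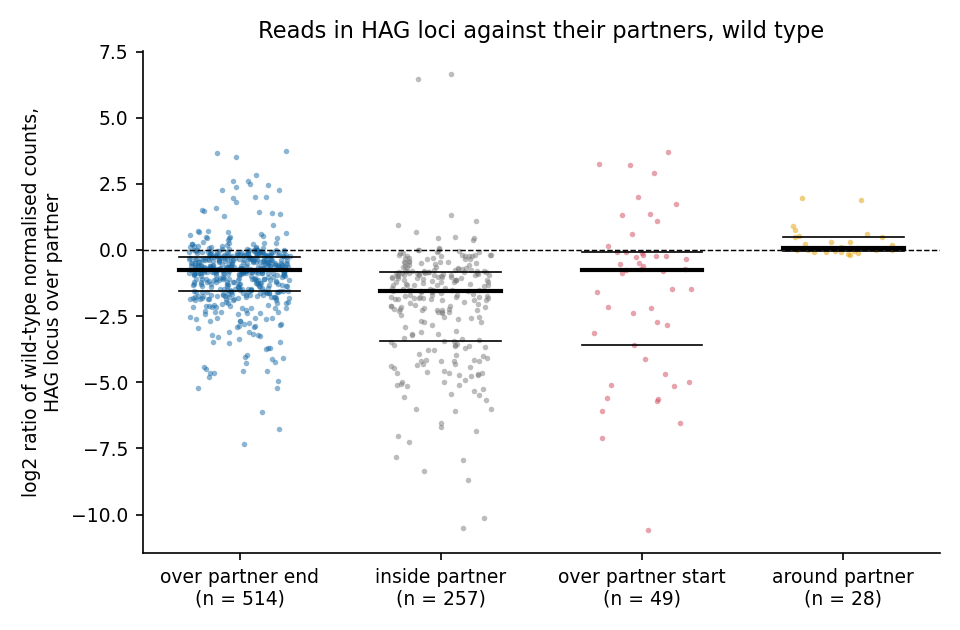
Log2 ratio of wild-type normalised counts, HAG locus over partner (vertical axis), for measured pairs in the 4 position classes. Each point is a pair, the thick line is the median and the thin lines are quartiles. Most points lie below the dashed line of equal counts, except where the locus spans the partner (median ratio 1.05), and 2 inside pairs with no wild-type HAG read are not drawn.

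Some pairs held the same number of reads to the last count. Counts were identical in all 4 wild-type libraries for 4 measured pairs, and for 3 of these the knockout mean was identical as well. The 4 partners are Cebpa, Tlr9, Kcnj1 and Mageh1. HAG_037143 (chr7:35904322-35907104) and Cebpa, a transcription factor of the granulocyte lineage, both had 245.1, 229.3, 235.6 and 241.3 normalised counts and both had 243.2 in the knockout mean. HAG_042700 and the Toll-like receptor gene Tlr9 both had 42.07, 32.45, 24.8 and 20.66, and both had 2.97 in the knockout mean. With equal counts, the authors' deposited table gave HAG_042700 a log2 fold change of -2.86 at adjusted p = 0.0477 and Tlr9 one of -2.79 at adjusted p = 0.0559. The 2 rows thus fell on either side of the threshold although these counts did not differ. In all, 21 pairs stayed within 5% of each other in every library.

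The reads a locus held beyond those of all overlapping rows together cannot have been shared with those rows. Of 930 measured loci, 765 had no such excess in wild type. By number alone, all of their reads could also have been given to another row. The length of the overlap did not enter this count, so 765 is an upper limit. Over all paired loci the overlap covered a median of 80.35% of the HAG span at partner ends and 100% inside partners. It covered 33.9% at partner starts and 35.54% where the locus spanned the partner. An excess in every library was found for 141 loci, and the excess made up at least 50% of the reads for 104. That held for 7.33% of the loci over partner ends, 15.6% of those inside, 17.0% of those over starts and 16.7% of those spanning the partner. Where a locus ran over a partner's end, the longest GENCODE vM21 transcript of the partner was 1.03 times (quartiles 1.0 and 2.21) the exon length in the deposited table for the 32 of 38 loci with at least 50% excess that could be matched. It was 1.01 times (quartiles 1.0 and 1.1) for 408 of 457 loci with none. For Egr3 the table holds 1414 bases of exon and the longest GENCODE transcript is 3940 bases. For some other partners of such loci, but not all, the lengths lay closer, with 3354 and 3356 bases for Kcng3. They were 1275 and 1320 for Hsd17b2 and 1870 and 1822 for Dnmt3l.

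The authors' deposited table called 84 of the 1059 HAG loci it tested (7.93%) at an adjusted p under 0.05, beside 6.84% of all 21778 features tested. There were 48 loci higher in the knockout (4.53%, beside 3.15% of all features) and 36 lower (3.4%, beside 3.7%). These shares lie near the background. Called loci ran from the smallest rise of 2.57 and the smallest fall of -2.58 on the log2 scale of the authors' deposited table to the extremes described next. Over the 930 measured loci the authors' deposited table gives a median log2 fold change of 0.08, against -0.04 over all 17684 measured features. Recomputed with library totals in place of size factors it was -0.25, where the median over all features moved by -0.34, so the HAG median stood 0.128 above that of all features with size factors and 0.127 above it with library totals. The labels name 1 biological replicate of wild type, whereas the series design names duplicates. These calls thus rest on a spread between libraries that may be technical or lie between samples. Libraries 1 and 2 lay close to each other, as did 3 and 4. The 2 pairs were at least 2-fold apart in 6.11% of 13089 features with at least 100 normalised counts. What set the pairs apart was not tested.

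Called loci moved with their partners. The partner was called the same way for 65 of the 84, with 40 pairs higher and 25 lower, and no pair was called in opposite directions. The 65 loci share 63 partners, so a few count a gene more than once. For the other 19 called loci the partner was tested and not called in 14 cases and untested in 5. For 65 of the 84 the reads in the arm where the locus was higher could, by number alone, all be shared. Of these, 56 had a partner called the same way. In the other direction, 21 tested loci that were not called had a called partner.

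Fold changes of a locus and its partner differed little. Over the 850 measured pairs the difference, HAG log2 fold change minus that of the partner, both from the authors' deposited table, had a median of -0.01, with 5% of pairs below -0.72 and 5% above 0.40. It was within 0.2 in 622 pairs (73.2%) and within 1 in 802 (94.4%). Across pairs r was 0.904 and rho 0.923, given as a description, since both rows come from the same libraries and can hold the same reads. The spread depended on position: the difference exceeded 1 in 18 of 49 pairs over partner starts (36.7%), in 18 of 259 inside (6.95%), in 12 of 514 over ends (2.33%) and in 0 of 28 spanning pairs.

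**Figure D2:**
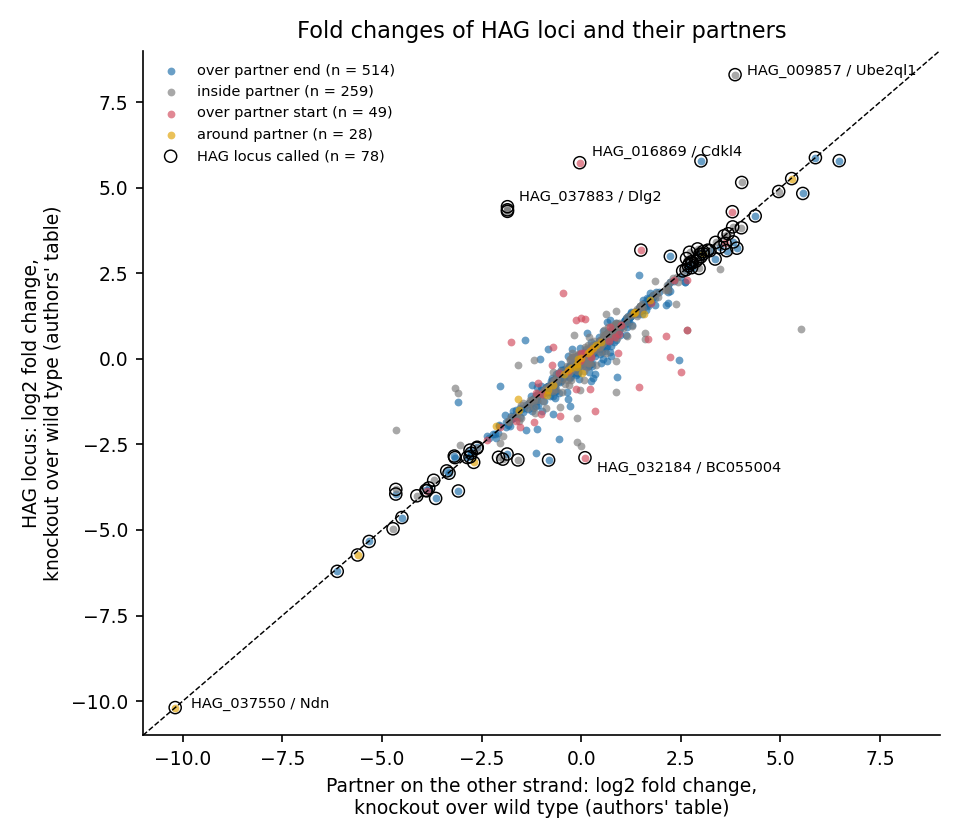
Log2 fold change of the knockout over wild type from the authors' deposited table for the partner (horizontal) and the HAG locus (vertical), 850 measured pairs coloured by position, with 78 called loci ringed. Most points lie on the dashed line of equal change, and the named loci over Cdkl4, Dlg2, BC055004 and Ube2ql1 lie off it.

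The largest fall was at Ndn. HAG_037550 (chr7:69493126-69495212, mm9) spans Ndn and had 1233, 1291, 2283 and 2196 normalised counts in libraries 1 to 4. Ndn itself had 1237, 1295, 2289 and 2199, so the ratio of the rows was 0.997 to 0.998 in every library. The knockout mean was 0.330 for both rows, and the authors' deposited table gave both a log2 fold change of -10.19 at adjusted p = 8.49e-12. With the knockout mean taken as that of 4 libraries, the knockout arm holds 1 read. The ratio of wild type to knockout for the HAG locus then has a 95% counting interval of 966 to 212800.

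Other large falls also followed the partner. HAG_010914 over the end of Cd180, a Toll-like receptor homologue of B cells, had 766.3 to 841.4 normalised counts in wild type and 8.90 in the knockout mean (log2 fold change -6.21, adjusted p = 4.92e-07 by the authors' deposited table). Cd180 had -6.12 in the authors' deposited table. HAG_041143 over Kbtbd13, a kelch-domain gene, fell by 5.34 on the log2 scale and Kbtbd13 fell by 5.32 in the authors' deposited table. The loci over Gucy1a2, a guanylate cyclase subunit, and Runx1t1, a transcriptional corepressor, had log2 fold changes of -4.97 and -4.64, beside -4.72 and -4.50 for the partners, from the authors' deposited table. HAG_015369 over the tight junction gene Cldn5 had -3.95, beside -4.65, in the authors' deposited table. In these 5 pairs the 4 wild-type libraries all lay above the knockout mean.

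HAG_019562, which spans Fgfbp3 and reaches well past its start, fell from 1295, 1267, 760.3 and 718.4 normalised counts to 122.6. Its log2 fold change was -3.03 at adjusted p = 0.0139 by the authors' deposited table, and that of Fgfbp3 was -2.70. The locus held 1.77 and 1.84 times the counts of Fgfbp3 in the first library pair and 1.18 and 1.21 times in the second. The excess over Fgfbp3 was 33.6% of its wild-type reads.

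Rises followed the same pattern. HAG_031512 over Rasl11b, a Ras-like GTPase gene, had 9.47, 8.38, 46.74 and 68.55 normalised counts and 2045 in the knockout mean (log2 fold change 5.88, adjusted p = 1.42e-06 by the authors' deposited table), and Rasl11b rose by 5.88 as well. HAG_012607 over Rem2, another small GTPase gene, rose by 5.79 and Rem2 by 6.48 in the authors' deposited table. HAG_020774, spanning Ier5l, had 13.67 to 28.62 normalised counts in wild type and 955.5 in the knockout mean, a log2 rise of 5.27 beside 5.28 for Ier5l in the authors' deposited table. Loci over Homer1, a synaptic scaffold, Gpr4, a proton-sensing receptor, and S1pr1, a sphingosine-1-phosphate receptor, rose by 4.30, 4.17 and 3.85. Their partners rose by 3.79, 4.37 and 3.80, and these log2 values too are those of the authors' deposited table.

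**Figure D3:**
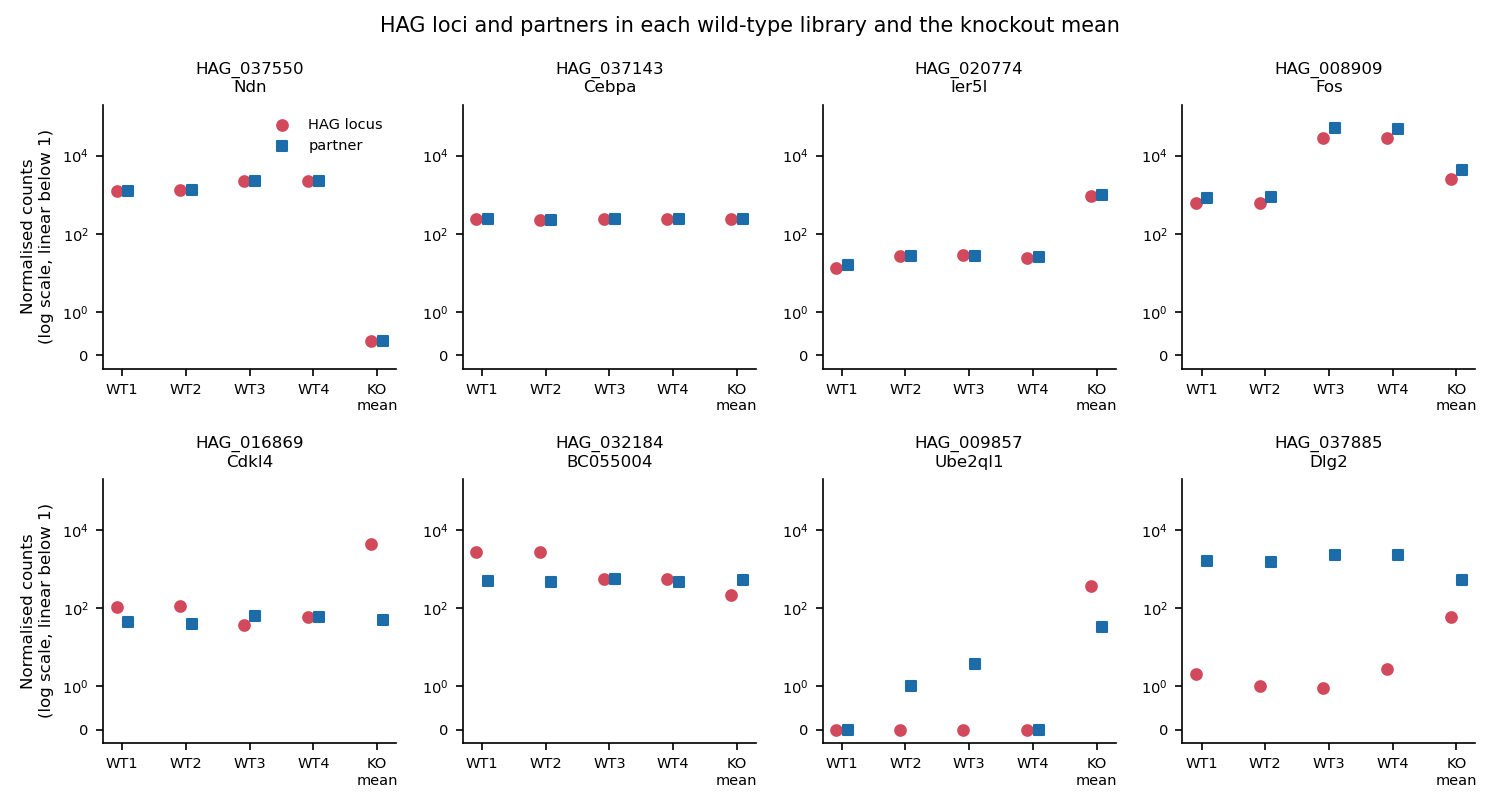
Normalised counts (log scale, linear below 1) of 8 HAG loci (circles) and their partners (squares) in the 4 wild-type libraries (WT1 to WT4) and the authors' knockout mean (KO mean). At Ndn, Cebpa, Ier5l and Fos the symbols move together, and at Cdkl4, BC055004, Ube2ql1 and Dlg2 they part.

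A few called loci departed from the partner. HAG_016869 (chr17:80952841-80969508) covers the start of Cdkl4, a cyclin-dependent kinase-like gene. It had 109.4, 109.9, 37.2 and 58.22 normalised counts in wild type and 4229 in the knockout mean, and the authors' deposited table gave a log2 fold change of 5.73 at adjusted p = 2.28e-06. Cdkl4 had 39.78 to 62.96 in wild type and 50.1 in the knockout, a log2 fold change of -0.04 by the authors' deposited table. The locus also overlaps HNG_017957, a row on the other strand that has a locus name only, over 3870 bases. That row had 27.66 to 65.95 in wild type and 3181 in the knockout mean, a log2 fold change of 6.04 by the authors' deposited table. The knockout reads of HAG_016869 exceeded those of Cdkl4 and HNG_017957 together by 23.6% of its own.

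Inside Ube2ql1, a ubiquitin-conjugating enzyme-like gene, HAG_009857 (chr13:69861241-69877840) had 0 reads in all 4 wild-type libraries and 367.2 normalised counts in the knockout mean. Set against 3 reads over the wild-type arm, the rise was 491.9-fold, a figure that leaves out the counting error of the knockout reads. The authors' deposited table gives a smaller rise of 315.4-fold at adjusted p = 7.28e-09. Ube2ql1 had 0, 1.05, 3.82 and 0 in wild type and 33.6 in the knockout, so 90.8% of the knockout reads of the locus were beyond those of the gene.

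3 loci inside Dlg2, a synaptic scaffold gene, rose while their partner was lower. HAG_037883, HAG_037884 and HAG_037885 had at most 3.14 normalised counts in any wild-type library and 47.5, 23.4 and 60.0 in the knockout mean. The authors' deposited table gave them log2 fold changes of 4.31, 4.44 and 4.35, with adjusted p of 0.00153, 0.00358 and 0.00121. Dlg2 had 1525 to 2330 in wild type and 532.6 in the knockout, a log2 fold change of -1.85 that the authors' deposited table did not call (adjusted p = 0.205). For HAG_037884, with 0 wild-type reads, the rise set against 3 reads was 31.35-fold, again without the counting error of the knockout reads. The authors' deposited table gives 21.76-fold, below that figure. The 3 loci share this partner and are not independent of each other. Dlg2 held more reads than each locus in either arm, so by number alone all reads of the loci could also be counted there.

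HAG_032184 (chr5:138651474-138668399) covers the start of BC055004. It had 2731, 2713, 559 and 548.4 normalised counts in libraries 1 to 4 and 219.2 in the knockout mean. The authors' deposited table gave a log2 fold change of -2.89 at adjusted p = 0.0195. BC055004 stayed between 463.7 and 543.7 in wild type and had 528.3 in the knockout. All 4 libraries lay above the knockout mean, yet the library pairs were farther apart from each other than libraries 3 and 4 were from the knockout mean. The excess over BC055004 was 68.6% of the wild-type reads summed over libraries, but it was 2121 of 2597 reads in library 1 and 2149 of 2592 in library 2, against 16 of 586 in library 3 and 79 of 584 in library 4.

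Of the 84 called loci, 12 had at least 50% of their reads beyond the overlapping rows in the arm where they were higher, 7 higher and 5 lower in the knockout. The higher ones lay over Ube2ql1, Kcng3 (a potassium channel subunit), Pla1a (a phospholipase), Glt25d2, Egr3, Slco6d1 and C330046G13Rik. The exon length held for Egr3 is shorter than its longest GENCODE transcript, as given above. HAG_002013 inside Glt25d2, a collagen galactosyltransferase gene, had 36.81, 34.55, 13.35 and 11.27 normalised counts in wild type and 361.2 in the knockout mean (log2 fold change 3.83, adjusted p = 0.00166 by the authors' deposited table). Glt25d2 had at most 0.939 in any library, so 98.9% of the wild-type and 99.8% of the knockout reads of the locus were not among those counted for Glt25d2. The locus lies wholly inside Glt25d2, and the strand these reads came from cannot be told from these counts. HAG_016884 past the end of Kcng3 had 69.42, 63.86, 19.08 and 17.84 and rose to 1242, and Kcng3 rose as well (4.83 and 5.56 on the log2 scale of the authors' deposited table). HAG_014919 over Pla1a had 1 wild-type read and 88.3 normalised counts in the knockout mean, with a counting interval of the ratio from 63.2 to 14070. The authors' deposited table gives 55.04-fold, below that interval.

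The 5 lower ones lay over Hsd17b2, Jakmip3, Gpr31c, 1700030N03Rik and BC055004, the last through libraries 1 and 2 as given above. HAG_040415 runs over the end of Hsd17b2, a steroid dehydrogenase gene. It had 15.26 to 27.22 normalised counts in wild type and 0 reads in the knockout arm, 20.89-fold lower. HAG_038442 inside Jakmip3 had 10.47 to 27.66 and likewise 0, 18.62-fold lower. These 2 folds set 0 against 3 reads and leave out the counting error of the wild-type reads. The authors' deposited table gives smaller falls of 17.72-fold for HAG_040415 and 15.66-fold for HAG_038442. HAG_019180, which spans 1700030N03Rik, had 97.81, 127.7, 311.0 and 300.5 and 28.0 in the knockout mean, while no read fell in 1700030N03Rik in any library. The authors' deposited table gives it a log2 fold change of -2.82.

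In other pairs over a partner's start the partner had much the larger fold change, with no call for either row. HAG_012840 over the start of Tsc22d1, a leucine zipper gene, had 411.1 to 515.0 normalised counts in wild type and 475.6 in the knockout mean. Tsc22d1 had 10360 to 21980 and 75181, a log2 fold change of 2.23 (adjusted p = 0.0935 by the authors' deposited table). HAG_035202 over the start of Ltbp4, a TGF-beta binding protein gene, had a log2 fold change of -0.39 beside 2.50 for Ltbp4 in the authors' deposited table, while the log2 ratio of the locus against libraries 3 and 4 only was 0.53. In both pairs the locus gave under 5% of the counts of the pair in library 1, with shares of 4.65% and 3.97%.

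The 6 loci farthest apart between the wild-type library pairs, among those with at least 100 normalised counts, all lay on immediate early genes, which are induced within minutes of a stimulus. The list brought 10 loci on 9 partners, of which 4 were called higher and 2 lower (beside 3.15% and 3.7% of all features), and their median log2 fold change was 1.86 beside -0.04 over all features. HAG_012788 past the end of Egr3, a zinc finger factor, had 15.78, 15.7, 1441 and 1436 normalised counts in libraries 1 to 4 and 6981 in the knockout mean. HAG_014521 and HAG_014522, both on the nuclear receptor gene Nr4a1, had 82.7 to 111.5 in the first library pair, 3952 to 4309 in the second, and 14745 and 13596 in the knockout mean. HAG_004217 over the ERK phosphatase gene Dusp6 had 1193 to 1814 and 11949. In these 4 loci the knockout mean lay above every wild-type library, and the log2 fold changes were 3.26, 2.84, 2.66 and 2.98 by the authors' deposited table. The size of the rise depended on the libraries used. Against libraries 1 and 2 only the log2 ratios were 8.75, 7.19, 7.12 and 3.27. Against libraries 3 and 4 only they were 2.28, 1.88, 1.70 and 2.74.

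For the 2 called falls on this list, the sign itself depended on which libraries stood for wild type. HAG_008909 over the end of Fos had 630, 612.4, 28970 and 28620 normalised counts in libraries 1 to 4 and 2459 in the knockout mean. HAG_040063 inside Klf2, a Krüppel-like factor gene, had 21.04, 18.84, 1463 and 1442, and 44.49 in the knockout mean. Both knockout means lay between the library pairs. The authors' deposited table gave log2 fold changes of -2.58 (adjusted p = 0.0414) and -4.00 (adjusted p = 0.000873), while against libraries 1 and 2 only the log2 ratios were 1.98 and 1.14. The Fos locus held 0.745, 0.71, 0.573 and 0.58 of the counts of Fos in libraries 1 to 4 and 0.589 in the knockout mean. Its share of the pair was 42.7% (40.1 to 45.3, exact binomial 95%) in library 1 and 36.4% (36.1 to 36.8) in library 3. HAG_035060 over Fosb, another AP-1 subunit, and the loci on Btg2, Dusp2 and Mcl1 were not called.

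For most loci the difference between the library pairs was close to that of the partner. Of 714 loci with at least 100 normalised counts in wild type, 54 were at least 2-fold apart between libraries 1 and 2 and libraries 3 and 4 (7.56%, beside 6.11% of 13089 features). There were 19 higher in libraries 3 and 4 (2.66%, beside 1.6%) and 35 lower (4.9%, beside 4.52%). In 43 of the 54 the partner also had at least 100, and in 29 of these it was 2-fold apart the same way. The difference between library pairs agreed within 0.2 on the log2 scale for 599 of 688 pairs of locus and partner, counting those not 2-fold apart too. HAG_042781 over the neutrophil granule gene Ngp had 3271, 3121, 392.1 and 394.4 normalised counts, a log2 difference of -3.02 beside -3.07 for Ngp. The summed neutrophil markers above, which include Ngp itself, were also lower in libraries 3 and 4.

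**Figure D4:**
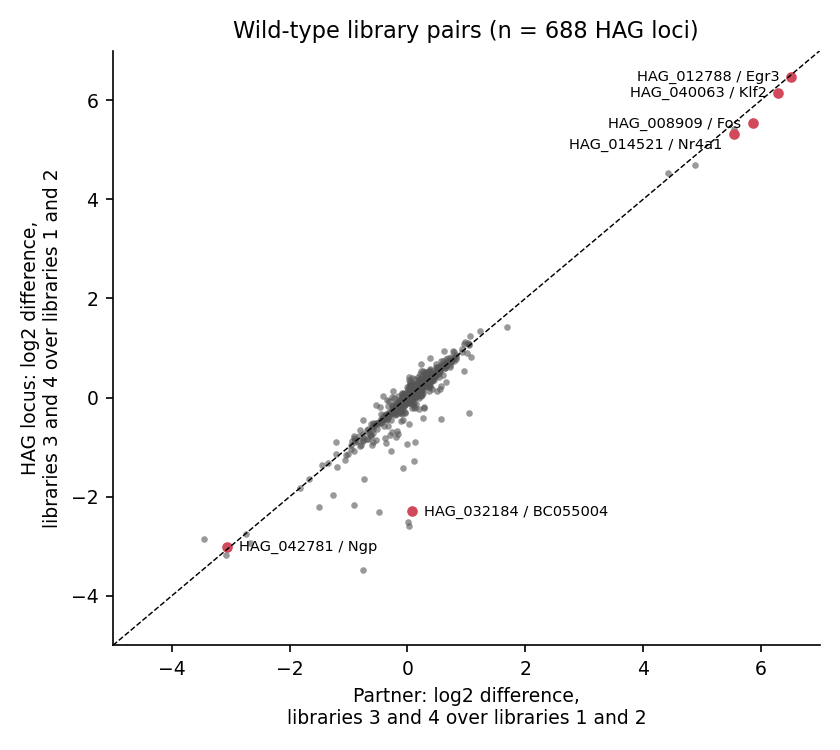
Log2 difference between wild-type libraries 3 and 4 and libraries 1 and 2 for the partner (horizontal) and the HAG locus (vertical), 688 loci with at least 100 normalised counts in both rows. Loci over Egr3, Klf2, Fos and Nr4a1 lie at the upper right and that over Ngp at the lower left on the dashed line of equal difference, and HAG_032184 over BC055004 lies below it.

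The differences of locus and partner were over 1 apart on the log2 scale in 11 of the 688. Other loci differed between the library pairs over a partner with few reads. Inside 9030425E11Rik, HAG_041962 had 282.9, 317.2, 21.94 and 22.54 normalised counts and 731.4 in the knockout mean, with 96.6% of its wild-type reads beyond its partner. Inside the potassium channel gene Kcnq1, HAG_038532 had 53.64, 59.67, 0.954 and 0.939, and 9.56 in the knockout mean. Kcnq1 had 0 to 7.36, and 90.9% of the wild-type reads of the locus lay beyond it.

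Imprinted genes carried 5 loci, of which 2 were called higher and 1 lower (beside 3.15% and 3.7% of all features). Besides Ndn these lay on Peg10, Plagl1, Kcnq1 and Gnas. HAG_033653 inside Peg10, a retrotransposon-derived gene, had 194.6 to 268.1 normalised counts in wild type and 1690 in the knockout mean (log2 fold change 2.92 by the authors' deposited table), with a ratio to Peg10 of 0.959 to 0.989 in the libraries. HAG_003563 inside Plagl1, a zinc finger gene, had 11.57 to 25.76 and 251.1, a log2 fold change of 3.65 by the authors' deposited table. HAG_024509 inside Gnas, which encodes a G protein subunit, had 373.0 to 473.2 and 225.8 (log2 fold change -0.96), while Gnas had 0.88, and the authors' deposited table called neither.

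Stem cell regulators carried 9 loci, on Angpt1, Erg, Etv6, Fli1, Gata2, Hlf, Meis1, Ndn and Tal1, and 2 of them were called, both lower (beside 3.7% of all features). Besides the Ndn locus this was HAG_005505 over the end of Hlf, a transcription factor gene of stem cells. It had 1065, 1071, 1368 and 1482 normalised counts and 180.6 in the knockout mean (log2 fold change -2.78, adjusted p = 0.026 by the authors' deposited table), while Hlf itself had -1.86 and was not called. The locus held 0.0339 to 0.0373 of the counts of Hlf in wild type and 0.019 in the knockout mean. The loci on Fli1, an ETS factor, and Meis1, a homeobox factor, had -1.85 and -0.99, not called, beside -1.82 and -1.08 for the genes, all from the authors' deposited table.

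Among Hox genes, HAG_007127 inside Hoxb1 rose from at most 3.82 normalised counts in any library to 87.7 in the knockout mean (log2 fold change 4.89 by the authors' deposited table), beside 4.96 for Hoxb1, and HAG_032762 over Hoxa10 was not called. Of the 2 loci on other developmental factors, HAG_006997 over Tbx4, a T-box gene, was called higher at 3.23, beside 3.91 for Tbx4 in the authors' deposited table, and HAG_020247 over Nkx2-3 was not called. DNA methylation genes carried loci on Dnmt3l and Tet3, the cell cycle list 1 on Ccnd2, and the myeloid and lymphoid list those on Cebpa and Ngp, of which 0 were called by the authors' deposited table. HAG_032949 inside Tet3, a methylcytosine dioxygenase gene, kept a ratio to Tet3 of 0.0416 to 0.0472 in the libraries and 0.0452 in the knockout mean. No HAG locus lay on the erythroid and megakaryocyte list.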

How the data were processed

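Poly(A)-selected RNA of freshly sorted mouse HSCs was made into libraries with the TruSeq RNA kit, per the labels' protocols, which name no strand marking. The authors deposited whole-number read counts per feature for each wild-type library. The authors also deposited a length-scaled signal, used only for exon lengths, a log2 fold change, and a p-value column read here as adjusted. Per the submitters' processing notes the genome build was mm9 and DESeq was among the tools. The aligner, counter and gene models are not given here in any source. Of 30 columns, 8 hold per-library values without a matching sample and were not used. Coordinates were read as 1-based.

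Size factors by the median-of-ratios method (0.951, 0.955, 1.048 and 1.065 for libraries 1 to 4) were divided out of the counts. The deposited knockout mean was brought to the same scale with an offset of 0.399 on the log2 scale (SD 0.0019 over 10804 features above 200 counts), so its values and the deposited log2 fold change share a scale. The labels call the 4 libraries technical replicates of 1 biological replicate, whereas duplicates are named in the series design. Libraries 1 and 2 differed little, as did 3 and 4, so each pair was averaged first. The genotypes were not tested against each other here, and a called row is one with an adjusted p under 0.05 in the table the authors deposited. The partner of a locus is the named row on the other strand with the longest overlap. Excess reads are those of a locus beyond all overlapping rows together, whatever the length of the overlap. Log2 ratios computed here added 0.5 normalised counts. A row at 0 in an arm was set against 3 reads over its 4 libraries, and the counting error of the other arm did not enter. Knockout reads are the deposited mean times 4, which assumes 4 knockout libraries. Intervals are exact at 95% and cover counting error only.

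The loci, gene lists and named loci were chosen with earlier results of these data known. Named loci were the 10 largest called rises and falls of at least 50 normalised counts, the 8 highest per kb, up to 4 per gene list, up to 6 called loci whose partner was not called or opposite, up to 4 called loci without a partner and the 6 farthest apart between library pairs. HAG_016893, HAG_042700, HAG_019562, HAG_012840, HAG_035202, HAG_024509, HAG_041962, HAG_004432, HAG_019224 and the called loci with most excess reads were named after their values were seen. The lists were immediate early, Hox, imprinted, stem cell regulators, DNA methylation, developmental transcription factors, cell cycle, erythroid and megakaryocyte, and myeloid and lymphoid genes. Alternatives changed the threshold, the level minimum, the overlap rule, the scaling (library totals, edgeR TMM) and the wild-type libraries used. Scripts (Python 3.11.15, pandas 2.3.3, scipy 1.17.1, R 4.3.3, edgeR 4.0.16) were tested on simulated data. Promoter windows came from RefSeq (GRCm38.p6), and the sequences of the loci themselves are not printed, since no genome of the build mm9 was used here.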

Additional observations from a re-analysis of the deposited data

Results flagged for a closer look

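In 3 HAG loci with few wild-type reads, 1 library stood apart from the other 3 by a gap close to the whole range of the 4. HAG_014919 over Pla1a had 1.05 normalised counts in library 2 and 0 in the others. HAG_019224 inside Tmem151a had 0.939 in library 4 and 0 in the others. Each of these values is a single read. HAG_003083 over C330046G13Rik had 0.939 in library 4 beside 3.82 to 4.21 in the others. Chance flags about 1 in 20 such groups, so 3 among the loci examined carry little weight.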

How the results depend on the processing

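At an adjusted p under 0.01 the authors' deposited table called 41 HAG loci (25 higher, 16 lower) instead of 84 (48 and 36), fewer because the threshold is stricter. If only loci wholly inside a partner count as paired, 437 of 1117 had a partner and 22 called loci, instead of 65, had a partner called the same way. The median log2 ratio over measured loci, 0.08, was -0.0057 with no level minimum, 0.12 with a minimum of 50, -0.25 with library totals, 0.16 with edgeR TMM factors and 0.12 against libraries 3 and 4 only. Leaving out 1 library at a time gave 0.067 to 0.094. The median over all features moved by -0.34 with library totals and by 0.07 with TMM. The HAG median minus that of all features was 0.128, 0.127 and 0.128 with size factors, library totals and TMM, so the scaling moved both alike. The median difference between a locus and its partner, the share of counts in HAG loci and the number of loci 2-fold apart between library pairs did not move beyond their spread or 1.5 times under the alternatives tried.

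Among 612 recomputed log2 ratios of 68 named loci, the sign changed in 2 for the 45 called loci and in 16, at 7 loci, for those not called. The 2 were against libraries 1 and 2 only, where HAG_008909 was at 1.98 and HAG_040063 at 1.14 (the cause was not tested). With the excess set at 75% or more, a choice made after seeing the data, 7 called loci met it instead of 12. No paired analysis was possible because the knockout arm has no sample with a replicate number. Counts under about 3 reads limit what can be said of the lowest loci.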
